A study of Homo sapiens with 8 samples.

Results

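PER1, DUSP1, KLF9, SGK1 and ZBTB16 are genes that several steroid hormones are known to switch on, and their loci were examined for sites of the progesterone receptor (PR). Each locus was taken as an hg19 window holding the gene and 50 kb on either side, rounded outward to whole kb. Window edges were thus set by gene position, but the 5 genes were chosen with earlier results of these data known. The contrasts below between these windows and the genome are therefore not those of an unselected set of loci. The windows were PER1 chr17:7993000-8106000, DUSP1 chr5:172145000-172249000, KLF9 chr9:72949000-73080000, SGK1 chr6:134440000-134690000 and ZBTB16 chr11:113880000-114172000. They span 890 kb and hold 70 of the 97966 PR sites listed over 5 time points.

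All samples were T47D-MTVL, a derivative of the T47D breast cancer line with an integrated mouse mammary tumour virus promoter reporter. After a period without serum, PR was precipitated from unstimulated cells (0 min) and after 5, 30, 60 or 360 min in 10 nM R5020, a synthetic progestin, and the bound DNA was sequenced (ChIP-seq). Regions with histone H3 monomethylated at lysine 4 (H3K4me1, found at enhancers and around promoters), H3 trimethylated at lysine 4 (H3K4me3, found at active promoters) and RNA polymerase II were listed for unstimulated cells alone. Each of the 8 groups was 1 library, so differences between times cannot be set against replicates and carry no p-value, and because the lists hold positions without heights, a site that is not listed was not shown to be unbound.

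PR, the glucocorticoid receptor and the androgen receptor are closely related hormone-activated transcription factors that recognise the same DNA element, an inverted repeat of a short half-site known as the hormone response element. This shared element is the usual account of why many genes answer to more than one steroid. PER1 is a repressor in the circadian clock, KLF9 a zinc finger transcription factor that answers to glucocorticoids and progestins, and ZBTB16 (also called PLZF) a zinc finger repressor. DUSP1 is a phosphatase that switches off MAP kinases, and SGK1 is a kinase that promotes survival and sodium transport. The glucocorticoid and androgen receptors were not among the targets precipitated, and RNA levels are not part of these data.

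The promoters of PER1 and DUSP1 are shown because an H3K4me3 region lay within 1 kb of each start edge and both hold an E-box, and that of SGK1 because its only H3K4me3 region lay deep inside the gene. All are from RefSeq on GRCh38.p14, a different build from that of the site lists, and each is the 250 bases before the start, on the minus strand, written 5′ to 3′. Capitals mark the E-box CACGTG (bound by clock and MYC family factors), the cyclic AMP response element TGACGTCA, and the CCAAT box in either orientation.
PER1 promoter, chr17:8152405-8152654: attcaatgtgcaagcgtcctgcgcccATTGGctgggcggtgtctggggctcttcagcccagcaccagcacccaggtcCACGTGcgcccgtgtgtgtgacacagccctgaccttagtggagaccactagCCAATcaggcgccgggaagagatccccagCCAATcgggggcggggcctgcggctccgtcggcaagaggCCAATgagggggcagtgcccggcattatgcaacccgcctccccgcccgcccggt
DUSP1 promoter, chr5:172771196-172771445: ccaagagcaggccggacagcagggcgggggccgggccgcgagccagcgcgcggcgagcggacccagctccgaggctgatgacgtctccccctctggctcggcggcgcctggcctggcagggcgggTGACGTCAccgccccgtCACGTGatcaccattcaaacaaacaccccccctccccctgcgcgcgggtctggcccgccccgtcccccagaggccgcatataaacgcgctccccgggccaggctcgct
SGK1 promoter, innermost of 3 listed starts, chr6:134174867-134175116: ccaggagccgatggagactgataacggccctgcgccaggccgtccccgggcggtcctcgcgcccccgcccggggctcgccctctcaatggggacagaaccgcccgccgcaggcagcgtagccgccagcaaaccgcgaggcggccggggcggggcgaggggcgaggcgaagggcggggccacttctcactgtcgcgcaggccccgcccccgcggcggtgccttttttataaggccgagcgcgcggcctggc

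On both strands, the E-box began 173 bases before the start in PER1 and 108 bases before it in DUSP1, and 6.34% of all 35116 RefSeq promoter stretches of this length hold one. The cyclic AMP response element of DUSP1 began 125 bases before the start, and 1.65% of stretches hold it. PER1 had 4 CCAAT boxes, a motif found at least once in 32% of stretches. The letters GNACA and TGTNC with 3 bases between them, the hormone response element, which 0.327% of stretches hold, were not found in these 3 stretches, nor was their core ACANNNTGT, which 4.61% hold. KLF9, whose promoter is not printed, had CCAAT boxes and neither of the other marked motifs. These matches describe the 250 bases shown and not the PR sites, whose own sequences were not read here.

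No PR site was listed in any of the 5 windows before hormone, and with R5020 the lists for 5, 30, 60 and 360 min held 16, 19, 18 and 17. The 0 min list was short, with 844 sites in all, so that an even spread over the genome would put 0.247 of a site in 890 kb. With hormone the windows were denser in sites than the genome: they held 1.80, 2.13, 2.02 and 1.91 sites per 100 kb at 5, 30, 60 and 360 min, beside 0.757, 0.852, 0.805 and 0.786 over the whole lists. The loci differed widely among themselves. At 60 min the windows of ZBTB16, KLF9, PER1, DUSP1 and SGK1 held 9, 5, 3, 1 and 0 sites.

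To place these counts, the genome was divided into consecutive stretches as long as each window, keeping stretches that hold a region of any list. At least 9 sites were listed at 60 min in 6.33% of 9106 stretches as long as the ZBTB16 window, and at least 5 in 6.73% of stretches as long as the KLF9 window. The corresponding share was 15.4% for the 3 sites of PER1 and 52.9% for the single site of DUSP1. The SGK1 window, with none, was like 30.6% of stretches of its length. ZBTB16 and KLF9 thus stood among the denser stretches, DUSP1 was ordinary and SGK1 was among the empty ones. The stretches were not matched for gene content.

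**Figure D1:**
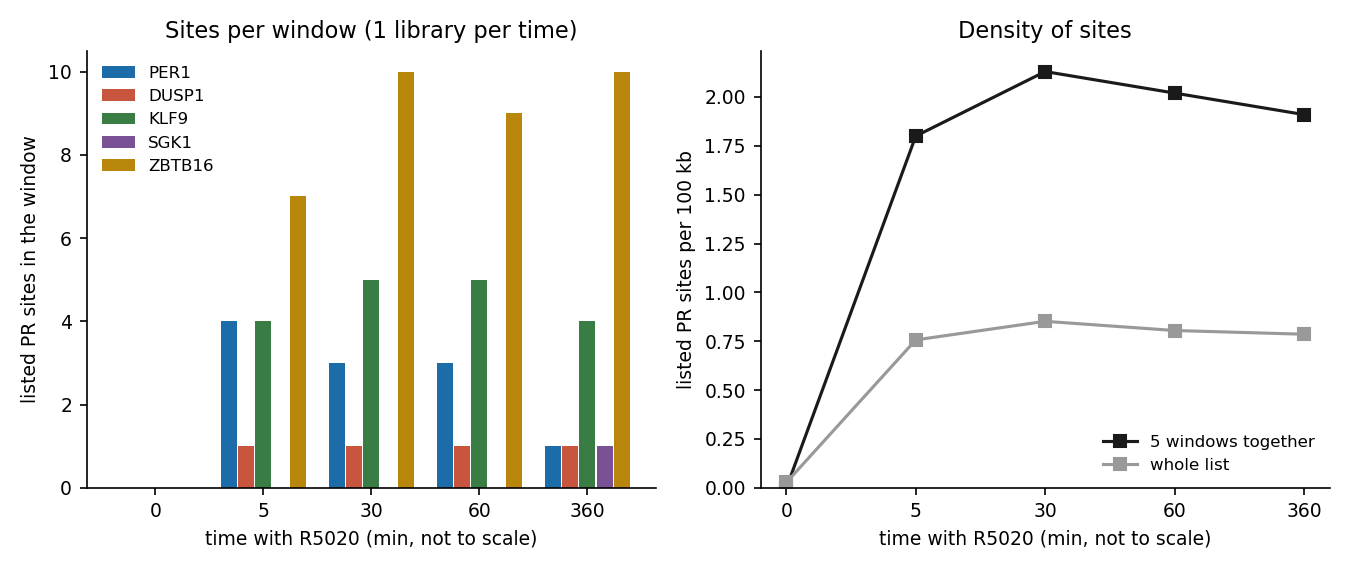
Left, bars give the number of listed PR sites in each window at each time with R5020 (1 library per time, min); right, listed PR sites per 100 kb in the 5 windows together and in the whole list. ZBTB16 has the tallest bar at each time with hormone, SGK1 has a bar at 360 min alone, and the windows lie between 1.80 and 2.13 sites per 100 kb with hormone while the whole lists lie between 0.757 and 0.852.

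Merging sites of different times that overlap by 1 bp or more gave 25 separate places: 13 at ZBTB16, 6 at KLF9, 4 at PER1, 1 at DUSP1 and 1 at SGK1. At 9 of the 25 (36%) PR was listed at all 4 times with hormone, where 22.8% of the 43784 merged places of the genome are. Of these 9, ZBTB16 had 6, KLF9 2 and DUSP1 1, and PER1 and SGK1 had none. This order was not kept in wide sites: with the wider 50% of each list, 1 of 15 places was listed at all 4 times, beside 14.1% of the genome's. A further 3 places (12%) were listed at 5 min alone, 1 (4%) at 30 min alone and 3 (12%) at 360 min alone, beside 16.8%, 8.52% and 10.1% of the genome's merged places.

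Most 60 min sites recurred at other times. Of the 18, 17 (94.4%, exact 95% interval 72.7 to 99.9%) were listed at 30 min, beside 77.6% of the whole 60 min list. At 360 min 14 of them (77.8%, 52.4 to 93.6%) were listed, beside 70.6%, and at 5 min 13 (72.2%, 46.5 to 90.3%), beside 53.7%. The intervals cover counting error only, and each of the 3 includes the value of the whole list. With hormone for 30 min or longer the window sites were mostly narrower than the lists. At 60 min they ranged from 203 to 447 bp with a median of 283.5 bp, beside 313 bp over the list, and 4 of the 18 were in the wider 50% of the list. The medians were 256 bp beside 285 bp at 30 min and 242 bp beside 265 bp at 360 min, while at 5 min the order was the other way, 303.5 bp beside 269 bp.

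In chromatin, the PR sites of these loci lay mostly in regions that carried H3K4me1 before hormone and outside H3K4me3 and RNA polymerase II regions. At 60 min 13 of 18 sites (72.2%, 46.5 to 90.3%) overlapped an H3K4me1 region, beside 48.2% of all 60 min sites, which lies inside the interval. None of the 18 overlapped an H3K4me3 region (upper limit of the exact interval 18.5%), beside 5.12% of all, although 27.8% lay within 1 kb of one, beside 8.70% of all. A single site (5.56%, 0.141 to 27.3%) overlapped an RNA polymerase II region, beside 8.92% of all. For the 5, 30 and 360 min sites the H3K4me1 shares were 75%, 68.4% and 64.7%, beside 51%, 47.3% and 45.1% of the whole lists. These shares rest on few places, many of them neighbours in the same H3K4me1 region: without the ZBTB16 window the 60 min share was 55.6%.

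Most marked regions of these loci held no PR site, as in the genome at large. Of the 36 H3K4me1 regions in the windows, 7 (19.4%) held a 60 min site, beside 12.2% of all 73263 such regions. The windows also hold 16 H3K4me3 regions, of which none held a 60 min site, beside 5.56% of all such regions, and 19 RNA polymerase II regions, of which 1 (5.26%) did, beside 6.84%. The loci were unequally marked: H3K4me1 regions covered 33.7% of the PER1 window and 33.6% of the DUSP1 window, 13.1% at ZBTB16, 6.26% at KLF9 and 1.35% at SGK1. The number of PR sites did not follow this order, since DUSP1 with 11 H3K4me1 regions had 1 site and KLF9 with 2 such regions had 5.

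**Figure D2:**
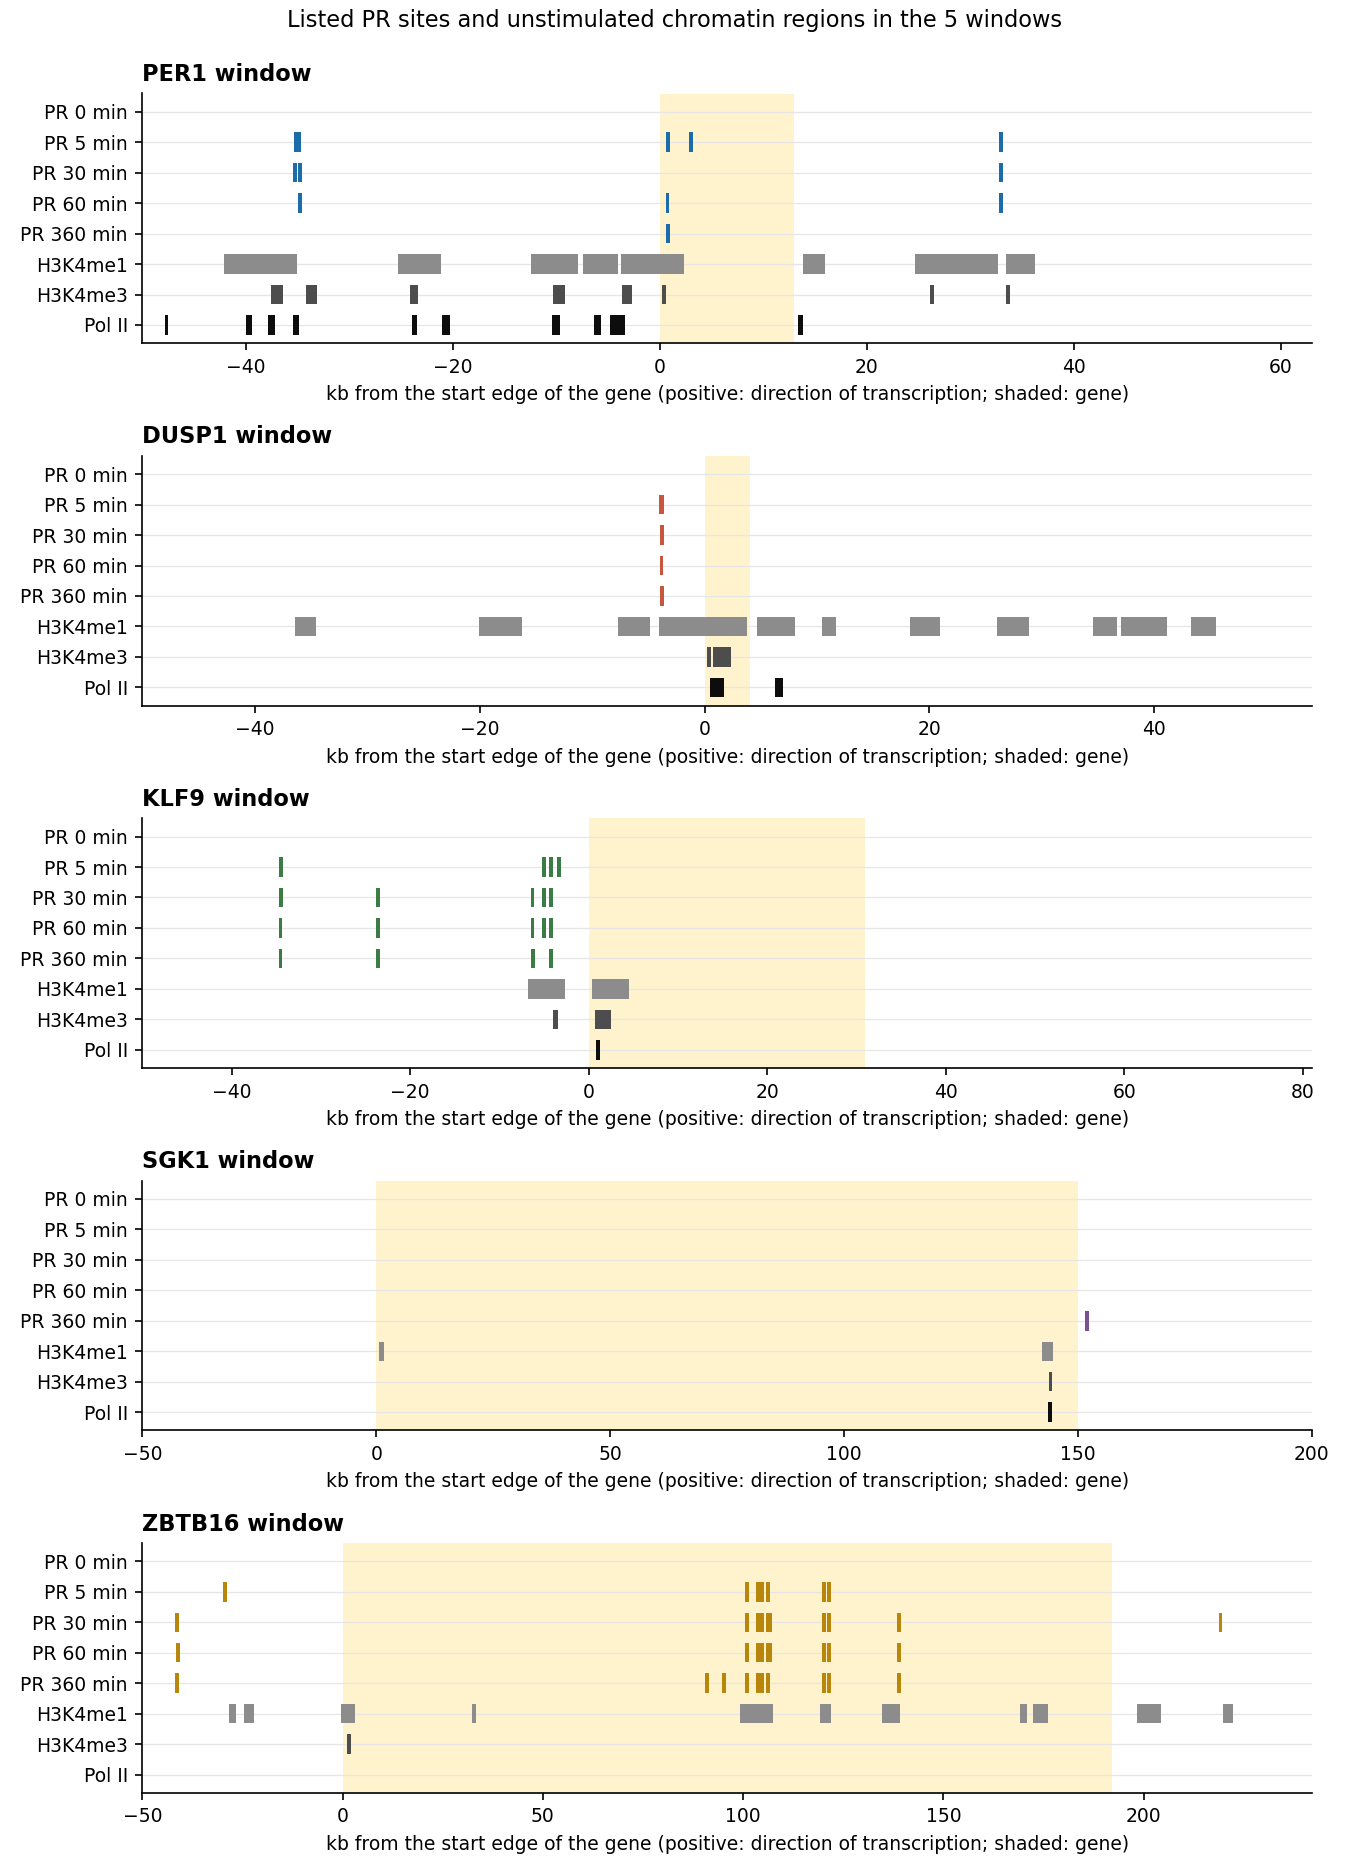
Each panel maps 1 window in kb from the start edge of the gene (positive values run in the direction of transcription, and the gene is shaded), with rows for the PR lists at 5 times and for H3K4me1, H3K4me3 and RNA polymerase II regions of unstimulated cells; features too narrow to see are drawn at a minimum width. PR sites cluster between 100.7 and 106.6 kb inside ZBTB16 and from 3.2 to 6.2 kb before KLF9, and the row for 0 min is empty in each panel.

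At PER1 the 4 PR places differed in the times at which they were listed. Distances are from the start edge of each gene as the window gives it to the nearest end of the merged place, and are exact to about 1 kb. The site closest to the start lay 0.6 kb inside this edge (chr17:8055154-8055357 at 60 min). It was listed at 5, 60 and 360 min and not at 30 min, with widths of 212, 203 and 189 bp, and at 360 min it was the only PR site of the window. It lay inside the H3K4me1 region that spans the start of PER1 (chr17:8053619-8059801) and stopped 116 bp short of the H3K4me3 region there (chr17:8055473-8055764). No RNA polymerase II region was listed inside the gene: the nearest to this PR site was 4047 bp away, before the gene.

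The other places at PER1 were distal or listed at 5 min alone. A site 34.6 kb before the gene was 721 bp wide at 5 min (chr17:8090638-8091359), was listed as 2 narrower sites of 192 and 256 bp at 30 min, and as 1 site over the first of these at 60 min (chr17:8090637-8090911). The 60 min site overlapped an RNA polymerase II region (chr17:8090894-8091419), the only one of the 18 to do so, and the overlap was at its edge, since the site's midpoint lay outside. A site 19.8 kb beyond the gene's end (chr17:8022906-8023152 at 60 min) was listed at 5, 30 and 60 min, with widths of 222, 249 and 246 bp. It lay in a gap between H3K4me1 regions, at its closest 164 bp from one. A last site, 2.9 kb inside the gene (chr17:8052911-8053137), was listed at 5 min alone. The PER1 window is rich in other genes (ALOXE3, BORCS6, HES7, TMEM107 and VAMP2 are its protein-coding neighbours within 50 kb in RefSeq, GRCh38.p14), so the distal sites and most of its 10 H3K4me3 and 13 RNA polymerase II regions cannot be assigned to PER1.

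At KLF9 PR sites lay before the gene and none inside it. A group of 4 places spanned the stretch from 3.2 to 6.2 kb before the start, in 1 H3K4me1 region of 4126 bp (chr9:73032658-73036784). The place at 4.0 kb (chr9:73034090-73034303 at 60 min) was listed at all 4 times with hormone, with widths of 321, 280, 213 and 243 bp at 5, 30, 60 and 360 min. Its neighbour at 4.9 kb (chr9:73034882-73035132) was listed at 5, 30 and 60 min, and the one at 6.2 kb (chr9:73036152-73036456) at 30, 60 and 360 min. Neighbouring places in 1 H3K4me1 region thus differed in the times at which they were listed.

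The place nearest the KLF9 gene (chr9:73033220-73033494) was listed at 5 min alone, and it was the only one of the 25 places to touch an H3K4me3 region (chr9:73033488-73033999), by 6 bp. A second H3K4me3 region (chr9:73027537-73029281), with the only RNA polymerase II region of the window, marked the start of KLF9 itself and held no PR site. The remaining KLF9 places were isolated and unmarked. One lay 34.4 kb before the gene (chr9:73064375-73064683) and was listed at all 4 times with hormone, with widths of 288, 284, 308 and 184 bp at 5, 30, 60 and 360 min. The other, 23.4 kb before it (chr9:73053497-73053769 at 60 min), was listed at 30, 60 and 360 min. They were 27587 and 16642 bp from any H3K4me1 region.

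ZBTB16 had the most PR sites, with 7, 10, 9 and 10 at 5, 30, 60 and 360 min, and most lay deep inside the gene. A run of 5 places stood between 100.7 and 106.6 kb from the start, in 2 neighbouring H3K4me1 regions (chr11:114029166-114035457 and chr11:114035492-114037382). Of these 5, 4 were present in each list made with hormone, and the fifth (chr11:114036599-114036817 at 60 min), 193 bp from its neighbour, at 30 and 60 min alone. A pair at 119.9 kb (chr11:114049953-114050340) and 121.2 kb (chr11:114051160-114051547) was also listed at all 4 times, and shared an H3K4me1 region with each other. The site at 119.9 kb kept nearly the same width throughout, 434, 393, 387 and 387 bp at 5, 30, 60 and 360 min, while that at 121.2 kb measured 327, 391, 387 and 186 bp.

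Other places at ZBTB16 were not listed until 30 min or were listed once. The one at 138.8 kb (chr11:114068880-114069136) and an unmarked one 41 kb before the gene (chr11:113888555-113889002) were listed at 30, 60 and 360 min. The latter was the widest 60 min site of the 5 windows, at 447 bp, and measured 236 bp at 30 min. A pair at 90.8 and 95.1 kb (chr11:114020839-114021041 and chr11:114025126-114025504) was listed at 360 min alone, a site 29.3 kb before the gene (chr11:113900565-113900726) at 5 min alone, and a site 27.1 kb beyond its end (chr11:114149090-114149335) at 30 min alone. None of these 4 was in an H3K4me1 region. NNMT is a protein-coding neighbour of ZBTB16 within 50 kb in RefSeq (GRCh38.p14), so places and regions outside the gene cannot be assigned to ZBTB16 by position alone.

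The promoter of ZBTB16 was marked but had no listed polymerase. An H3K4me3 region (chr11:113931229-113931890) and an H3K4me1 region (chr11:113929570-113933181) marked its start, but no RNA polymerase II region was listed anywhere in the 292 kb window in unstimulated cells, whereas the other windows had 13, 4, 1 and 1. The PR site nearest to the H3K4me3 region was 30503 bp from it, before the gene, and the nearest inside the gene was 88949 bp away. Of the 12 H3K4me1 regions of the window 4 held a 60 min PR site, and that at the start was not among them. The absence of a listed polymerase region does not show that the gene was silent, since the depth and threshold of that library are unknown.

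At DUSP1 PR was listed at 1 place, 3.6 kb before the gene, at each time with hormone. The site was chr5:172202636-172203046 at 5 min and chr5:172202674-172202998 at 60 min, with widths of 410, 250, 324 and 288 bp at 5, 30, 60 and 360 min. It lay near the outer end of an H3K4me1 region of 7809 bp (chr5:172195255-172203064) that runs across the gene's start. Both H3K4me3 regions of the window (chr5:172196663-172198238 and chr5:172198455-172198713) and 3 of its 4 RNA polymerase II regions lay within the edges of DUSP1 as the window gives them. The second H3K4me3 region was 287 bp inside the start edge, which is exact to about 1 kb, so it may lie before the gene. The PR site was 3923 bp from the nearest H3K4me3 region. The other 10 H3K4me1 regions of the window held no PR site at any time.

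SGK1 differed from the other 4 genes in having no listed PR site at 0, 5, 30 or 60 min, so these lists do not show it as a PR target within 60 min of R5020. At 360 min 1 site of 225 bp was listed (chr6:134488025-134488250), 1.8 kb beyond the gene's end and 7171 bp from any H3K4me1 region. The window had little listed chromatin of any kind: 2 H3K4me1 regions, 1 H3K4me3 region (chr6:134495604-134496088) and 1 RNA polymerase II region (chr6:134495825-134496108). The last 2 overlapped each other 143.9 kb from the start edge, inside the larger H3K4me1 region. SGK1 is known to have several alternative starts. In RefSeq on GRCh38.p14 the innermost start, whose promoter is shown above, is 143.2 kb from the outermost one; this is a distance within the other build, and positions were not carried across.

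The remaining measure was nucleosome-sized DNA. Micrococcal nuclease (MNase) cuts the linker between nucleosomes, so the reads left at a site reflect DNA protected mainly by nucleosomes. The authors' table gives a normalized read number for each 60 min PR site in unstimulated cells and after 60 min of R5020, and their ratio, unstimulated over R5020. A ratio above 1 means fewer reads with hormone. SGK1, without a 60 min site, has no value.

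Reads were lower with hormone at all 18 sites. In the authors' deposited table the sites had between 16 and 163 reads in unstimulated cells (median 79) and between 8 and 104 after R5020 (median 42.5). The ratios ran from 1.46 to 2.82, with a median of 1.89 (exact 95% interval of the median over sites 1.63 to 2.44), beside 1.29 over the 24433 sites with a ratio in the authors' deposited table. This interval treats the 18 sites as independent, although many are neighbours, and it holds no spread between libraries. A ratio above 1.5 was found at 16 of the 18 sites, beside 33.5% of all sites in the authors' deposited table, and a ratio below 1/1.5 at none, beside 2.57%. Since 78% of all sites in the authors' deposited table have a ratio above 1 and a different scaling of one library would shift every ratio together, the position within the table is the firmer reading: divided by the overall median, the window median was 1.47 and 8 of 18 sites stayed above 1.5, beside 14.9% of all sites in the authors' deposited table treated the same way. All 8 overlapped an H3K4me1 region, and their undivided ratios were 1.98 or higher. Among sites of the authors' deposited table that carry the H3K4me1 mark, 75.5% had an undivided ratio of at most 1.94, beside 85.4% of all sites. In the wider 50% of the 60 min list, all 4 window sites had an undivided ratio above 1.5, beside 33.2% of such sites in the authors' deposited table.

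**Figure D3:**
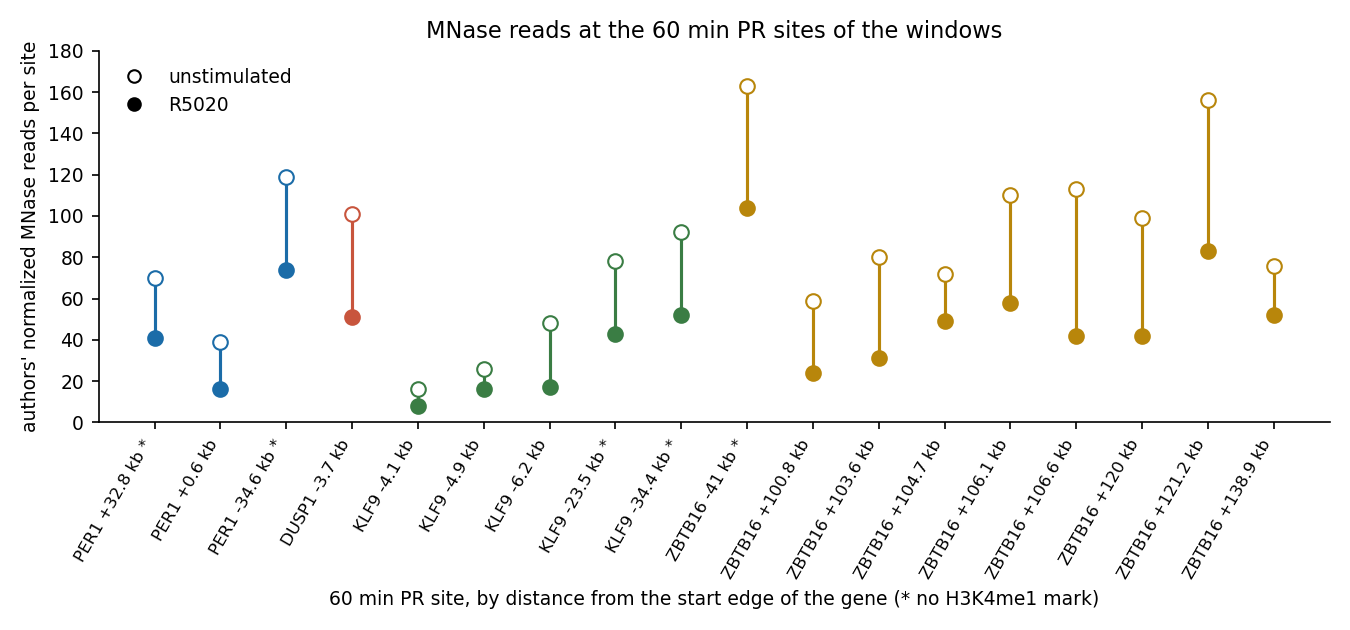
For each 60 min PR site of the windows, the open circle is the authors' normalized MNase read number in unstimulated cells and the filled circle that after R5020; sites are named by gene and by kb from the start edge, and an asterisk marks sites without the H3K4me1 mark. The filled circle lies below the open one at all 18 sites, and the KLF9 sites at 4.1 and 4.9 kb before the gene have the fewest reads, 16 and 26 in unstimulated cells.

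The difference from the table was present in both chromatin classes. The authors' deposited table marks 13 of the 18 sites as H3K4me1 sites, of which 11 had a ratio above 1.5, beside 49.4% of all marked sites. All 5 unmarked sites were above 1.5, beside 18.7% of unmarked sites in the authors' deposited table, although at 1.57 to 1.81 they were not among the highest of the 18. These counts use undivided ratios: the 8 sites that stayed above 1.5 after division by the overall median were all marked ones. The unmarked sites at PER1 lay only 182 and 113 bp from an H3K4me1 region. The median ratio in the authors' deposited table was 2.00 at the 13 marked sites and 1.5 at marked sites in general, and 1.71 at the 5 unmarked ones and 1.15 at unmarked sites in general. Sites in 1 window are neighbours and not independent observations.

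**Figure D4:**
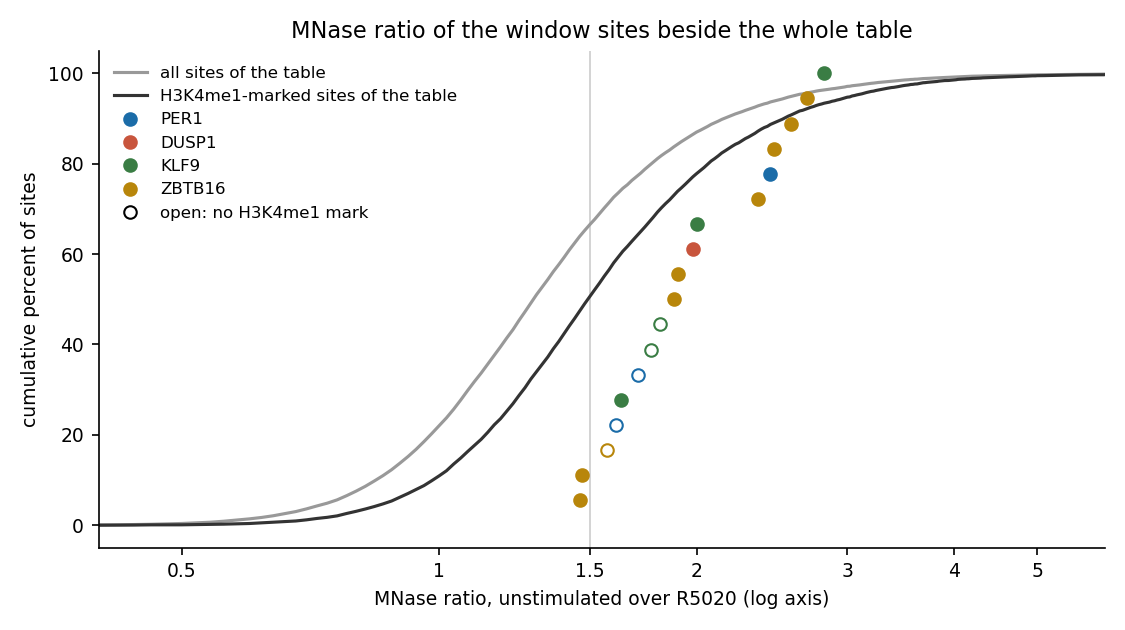
Cumulative percent of sites by MNase ratio, unstimulated over R5020 (log axis), for all sites of the authors' table (grey line), for its H3K4me1-marked sites (dark line) and for the 18 window sites (circles coloured by gene, open without the mark); the vertical line marks 1.5. The lowest window site is at 1.46 and 16 of the 18 lie to the right of the line, as do 33.5% of all sites.

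Between the loci the ratios overlapped. In the authors' deposited table the PER1 site near the start went from 39 to 16 reads (ratio 2.44), the one beyond the gene's end from 70 to 41 (1.71) and the one before the gene from 119 to 74 (1.61). The site in the H3K4me1 region at the start thus had the highest ratio and the fewest reads of the 3. The DUSP1 site went from 101 to 51 reads in the authors' deposited table, a ratio of 1.98 that was higher than at 86.2% of all sites.

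At KLF9 the highest ratio of the 5 windows was found 6.2 kb before the gene, where reads in the authors' deposited table went from 48 to 17 (2.82, higher than at 96.3% of all sites). The places at 4.0 and 4.9 kb had few reads to begin with: 16 and 8 at the first (ratio 2) and 26 and 16 at the second (1.63) in the authors' deposited table, so that these ratios rest on the fewest reads of the set. Per 100 bp, the 3 sites of this group had 7.51, 10.4 and 15.8 reads in unstimulated cells from the authors' deposited table, fewer than the 28.7 and 29.9 at the unmarked distal sites. Those distal sites went from 78 to 43 (1.81) and from 92 to 52 (1.77) in the authors' deposited table.

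At ZBTB16 the 9 ratios in the authors' deposited table ran from 1.46 to 2.69, nearly the whole range of the set. The highest was at the site listed at 30 and 60 min alone, with 113 and 42 reads in the authors' deposited table, followed by the site at 103.6 kb with 80 and 31 (2.58), that at 100.7 kb with 59 and 24 (2.46) and that at 119.9 kb with 99 and 42 (2.36). The lowest were at 138.8 kb, with 76 and 52 (1.46), and at 104.6 kb, with 72 and 49 (1.47), in the authors' deposited table. Sites 1 kb apart in 1 H3K4me1 region could therefore differ as much as sites of different genes. The remaining 3 sites in the authors' deposited table went from 110 to 58 (1.90), from 156 to 83 (1.88) and, 41 kb before the gene, from 163 to 104 (1.57).

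The medians of the surrounding sites had the order of the window medians at DUSP1, ZBTB16 and KLF9, but not at PER1. PER1 had the lowest window median, from 3 sites, and the highest surrounding one. Both statements hold for windows with 50 kb on each side. With 25 kb the window medians took another order. They were 2.08 at PER1 (2 sites), 1.98 at DUSP1 (1), 1.91 at KLF9 (4) and 2.13 at ZBTB16 (8). Within 1 Mb of the PER1 window, 14 other 60 min sites had a median ratio of 1.715 in the authors' deposited table, no lower than the 1.71 of the window itself. For the 38 sites around DUSP1 it was 1.58, beside 1.98 at the single site of the window. Around KLF9 and ZBTB16 the surrounding medians in the authors' deposited table were lower, 1.365 at 8 sites and 1.42 at 18 sites, beside 1.81 and 1.90 inside the windows. Of the sites around PER1, DUSP1, KLF9 and ZBTB16, 71.4%, 52.6%, 37.5% and 27.8% had a ratio above 1.5. The share was 33.5% of all sites in the authors' deposited table. For PER1 the median of the 50 kb window, the middle of 3 values from 1.61 to 2.44, was thus close to that of its surroundings. With 25 kb it was higher, at 2.08. How far regional read density takes part in the values of these loci was not tested.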

How the data were processed

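The authors deposited the PR sites and chromatin regions of 8 samples as hg19 positions, a build that the submitters' processing notes name. The sources used here name no aligner, peak caller, threshold, input or read depth, so the precision of a listing is unknown. MNase values were deposited by the authors as normalized read numbers, whole numbers handled as a score, together with their ratio; per the file headers they refer to the 60 min sites. The authors' ratio equals unstimulated over R5020 within 0.005 at all 24433 sites that have one. The MNase libraries are not among the 8 samples, and their 60 min of R5020 is from the series' design text.

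From these, sites overlapping a window by 1 bp or more were counted, sites of different times were merged at an overlap of 1 bp, and overlaps with chromatin regions were taken at 1 bp. Coordinates are printed as listed. Shares carry exact (Clopper-Pearson) 95% intervals. Genome lengths for densities run to the last listed position of each chromosome, and the stretches compared with a window were those holding a region of any list. Start edges are the window ends less 50 kb on the side of the gene's start. Named sites are all merged places of a window or, at 60 min, all sites, which goes beyond the rule for named sites (the place nearest the start, those listed most often, the extremes of the MNase ratio and any in an H3K4me3 region). The genes and tests were chosen with earlier results of these data known. Promoters were found in RefSeq for PER1, DUSP1, KLF9 and SGK1. Gene starts on hg19 were not used here, so a planned list of other steroid-responsive genes and luminal and basal markers was not analysed here. Overlaps and counts were checked on simulated lists. Python 3.11.15, NumPy 2.4.6, SciPy 1.17.1 and Matplotlib 3.10.9 were used.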

Additional observations from a re-analysis of the deposited data

How the results depend on the processing

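No paired analysis was possible because each group holds 1 library. Of the recomputed main results, 60 stayed close to the main value (counts within 1.5 times, shares and median ratios within the main value's exact interval) and 17 moved further. Some of the 60 were fixed in advance, so this tally is no measure of robustness. A count or share of 0 cannot rise with narrower windows, fewer sites or fewer regions. Leaving out SGK1, which has no 60 min site, cannot change a 60 min result. A reversal was defined for median ratios alone, as a median crossing 1, and none did. Counts and shares could not be labelled as reversed. With 100 kb on each side of the genes the windows held 29, 30 and 29 sites at 30, 60 and 360 min. Of 40 places, 14 were then listed at all 4 times with hormone, where the main setting had 9 of 25, beside 22.8% of the genome's. A ratio above 1.5 was found at 25 sites (of 30), beside 33.5% of all sites. Taking the wider 50% of each list left 6, 4 and 7 sites at these times, 1 place (of 15) listed at all 4 times, beside 14.1% of the genome's, and 4 sites (of 4) with a ratio above 1.5, beside 33.2%. Counting sites within 1 kb of an H3K4me3 region gave 27.8%, beside 8.70% of all 60 min sites. The RNA polymerase II share became 0% by midpoints, with 25 kb on each side and without the PER1 window, since it rests on 1 site. Dividing by the overall median ratio gave a median of 1.47 with 8 sites above 1.5 (14.9% of all sites pass this way). Without the ZBTB16 window 9 of 9 sites had an undivided ratio above 1.5, beside 33.5% of all sites. The 0 min count was 0 under each setting run, of which only that with 100 kb on each side could have added a site. Unknown depth limits every statement on a site that is not listed.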
